A study of Arabidopsis thaliana with 12 samples.

Results

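The genes described here are 3 nuclear genes of the light-harvesting antenna, LHCB1.2 (AT1G29910), LHCB2.2 (AT2G05070) and LHCB4.2 (AT3G08940), and GLK1 (AT2G20570), a regulator of chloroplast genes. They were taken by locus identifier, which gives 4 of the 656 genes that the deposited tables list for leaf or root. The LHCB genes are among the 65 genes listed for root and GLK1 is among the 608 listed for leaf, and either table gives the value of a gene in all 12 libraries. LHCB proteins bind chlorophyll and pass the energy of absorbed light to photosystem II. LHCB1 and LHCB2 form the trimers of the major antenna, whereas LHCB4 is a minor antenna protein that links them to the photosystem core. GLK1 is a GARP family transcription factor that, with its partner GLK2, is known to promote genes of light harvesting and chlorophyll synthesis in green tissue. Differentiated roots are normally pale, and their plastids carry little of this machinery.

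The libraries came from wild-type seedlings of the Wassilewskija (WS) ecotype, 11 days old, grown on solid medium under constant LED light of 100 to 135 µmol per m2 per s in the Veggie unit. The 12 libraries form 4 groups of 3 replicates, spaceflight leaf and spaceflight root from plants grown on the International Space Station, and ground control leaf and ground control root from plants grown in the same hardware in a simulation chamber. No transgene or mutant was used, and the treatments differ in all that separates the station from the chamber. The ground control ran 48 h behind according to the labels, and with a shorter delay according to the methods. A replicate is a plate, from which 3 plants were pooled, so the error given is the spread between plates. Each value is in FPKM, a fragment count scaled by transcript length and by the mapped total of the library. It is a share of the library and can be compared between genes of different length. The tables used here hold no counts, so the depth of a library is unknown and no counting error can be given. They list only genes that the authors called for spaceflight against ground control in that organ. The root difference of the LHCB genes and the leaf difference of GLK1 are therefore descriptions of the contrast that put them in the tables, and only the other organ gives a comparison that was not used for that.

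A material field in the labels calls the ground control leaf libraries roots and the spaceflight root libraries leaves, while the titles give the organs used here. LHCB1.2 bears on this directly, with at least 4437 FPKM in every library titled leaf and at most 235 FPKM in every library titled root. BGLU21, a root beta-glucosidase, stood the other way round, between 0.34 and 2.12 FPKM in the leaf libraries and between 521 and 968 FPKM in the root libraries. It was the only one of 15 root marker genes in either table. The methods describe whole dissected roots and the extraction text root tips, so the part of the root sampled is not settled. Spaceflight leaf replicate 1 and spaceflight root replicate 2 stood apart from the other libraries of their groups in the LHCB genes, and results that rest on them are also given without them.

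The LHCB genes belong to a family of near copies, and this limits how well reads can be assigned. LHCB1.2 has 1 coding exon and lies on the minus strand of chromosome 1 from 10472280 to 10473502 (TAIR10.1, where it carries the symbol CAB3). Its 804-base coding sequence was 96.4% identical to that of LHCB1.3 and 95.6% identical to that of LHCB1.1, its tandem neighbours. Of the 50-base windows in the LHCB1.2 transcript, 10.6% occurred exactly in the transcript of another gene, and 1.51% of the 100-base windows did. The longest stretch that LHCB1.2 and LHCB1.1 share is shown because reads within it cannot tell the genes apart. It has 116 bases, coding bases 85 to 200 counted from the start codon, at chr1:10473047-10473162 on the minus strand of the RefSeq TAIR10.1 genome, which is the Columbia accession and not WS:
LHCB1.2 and LHCB1.1: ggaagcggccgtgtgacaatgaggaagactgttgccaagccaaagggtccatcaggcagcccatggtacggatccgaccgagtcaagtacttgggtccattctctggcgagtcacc
LHCB2.2 lies on the minus strand of chromosome 2 from 1799234 to 1800472 with 2 exons, and its coding sequence was 96.6% identical to that of LHCB2.1. Its transcript shared 28.2% of 50-base windows and 12.4% of 100-base windows with LHCB2.1, the highest shares among these genes. LHCB4.2, on the plus strand of chromosome 3 from 2717557 to 2718923, shared no 50-base window with any other transcript, and the nearest gene, LHCB4.1, was 81.1% identical. LHCB4.2 overlaps the antisense gene AT3G08943 over 44 bases, and the sources differ on whether the library kit keeps strand. GLK1, on the plus strand of chromosome 2 from 8855302 to 8857758 with 7 exons, also shared no 50-base window, and its coding sequence was 56.6% identical to that of GLK2. Values of LHCB1.2 and LHCB2.2 may thus include reads of their close copies, and those of LHCB4.2 and GLK1 are less exposed to this.

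Antenna transcripts were among the most abundant of the listed genes in leaves. LHCB1.2 reached 9418, 12981 and 11518 FPKM in ground control leaves and ranked first of the 656 genes by mean level, in ground control and in spaceflight leaves. LHCB2.2 reached 2202, 2536 and 2421 FPKM and LHCB4.2 at 2058, 2311 and 2118 FPKM in the same libraries. GLK1, the regulator, had 123, 104 and 135 FPKM there and ranked 39th by mean. The order of mean levels in ground control leaves was LHCB1.2, LHCB2.2, LHCB4.2 and GLK1. LHCB2.2 and LHCB4.2 overlapped across libraries, although LHCB2.2 was the higher of the pair within each of them.

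In roots the same genes were expressed far below the leaf level. LHCB1.2 had 76.9, 76.1 and 69.35 FPKM in ground control roots, and the leaf mean was 153 times the root mean. The ratio was 170 for LHCB2.2, 115 for LHCB4.2 and 115 for GLK1, whose ground control roots had 0.94, 1.19 and 1.00 FPKM. On the log2(FPKM + 1) scale, leaf exceeded root on the ground by 7.22 for LHCB1.2 (standard error 0.16, limma adjusted p = 1.23e-07), by 7.32 for LHCB2.2 (standard error 0.17, same adjusted p) and by 6.78 for LHCB4.2 (standard error 0.13, same adjusted p). For GLK1 the difference was 5.89 (standard error 0.16, limma adjusted p = 2.70e-08). A gene counts as called here where the adjusted p, over all genes of the table that lists it, lies under 0.05 and the change reaches 2-fold, and 47.7% of the root-listed and 22.2% of the leaf-listed genes were called higher in ground control leaf by that rule. In spaceflight the organs stood closer together, with leaf over root ratios of 48.5 for LHCB1.2, 37.9 for LHCB2.2, 52.0 for LHCB4.2 and 75.0 for GLK1. Part of this narrowing follows from the listing, which used the root difference of the LHCB genes and the leaf difference of GLK1. All 4 genes were again called higher in leaf, as were 52.3% of the root-listed and 32.6% of the leaf-listed genes. The log2 differences were 5.59 for LHCB1.2, 5.16 for LHCB2.2, 5.66 for LHCB4.2 and 4.85 for GLK1. The 1 added to each FPKM shrinks the difference most for GLK1, whose roots lie near 1 FPKM. With 0.1 in its place GLK1 had 6.72 on the ground and 6.02 in spaceflight, and LHCB4.2 had 6.85 and 5.70. The order of the genes in spaceflight thus depends on that setting.

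**Figure D1:**
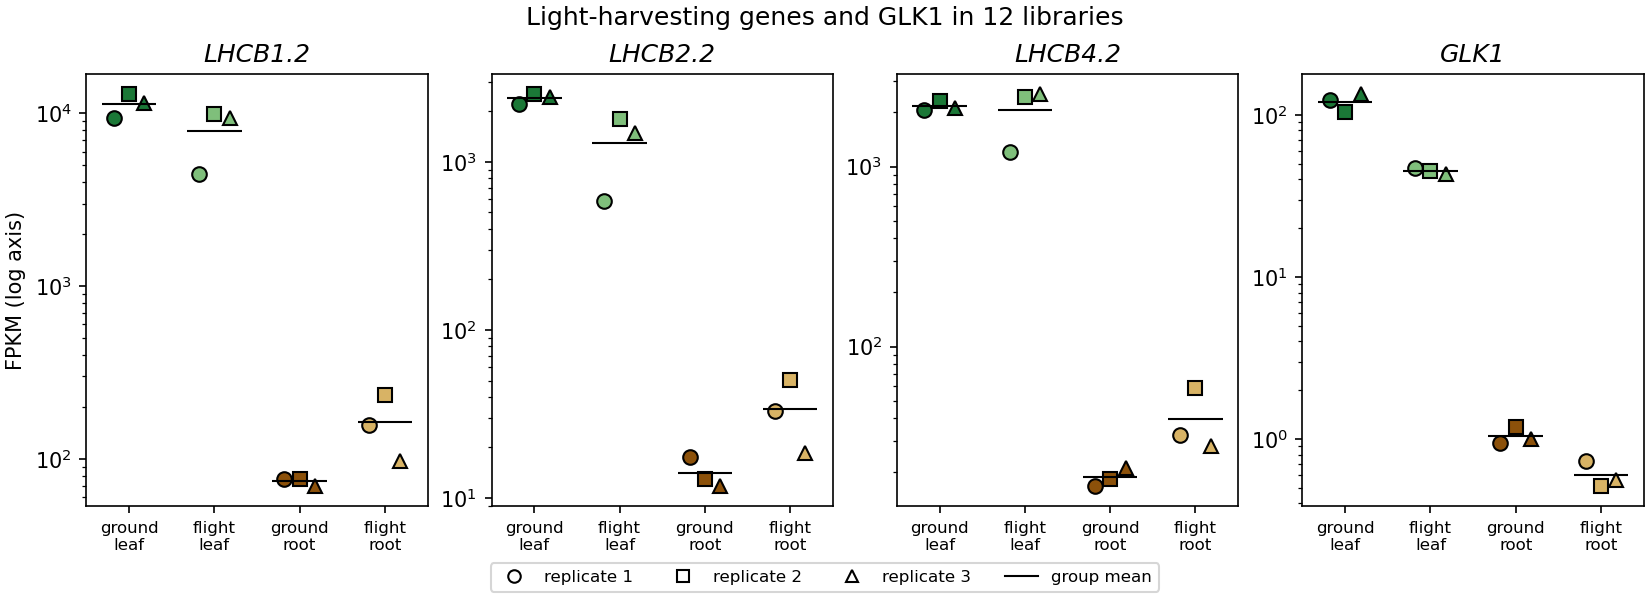
FPKM on a log axis in each of the 12 libraries for the 3 LHCB genes and GLK1; symbols mark the replicate and bars the mean of 3 libraries. The LHCB genes were higher in all 3 spaceflight roots than in any ground control root, GLK1 was lower in all spaceflight libraries of either organ, and spaceflight leaf replicate 1 was the lowest leaf library of each LHCB gene.

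GLK1 transcripts were reduced in spaceflight leaves, to a level that hardly varied between plates. The 3 spaceflight leaf libraries had 47.1, 44.7 and 43.2 FPKM, against the ground control values above, so the groups did not overlap, as for 23.7% of the 608 leaf-listed genes in this direction. The mean fell from 120.5 ± 15.4 to 45.0 ± 1.97 FPKM (SD, n = 3 each), a ratio of 2.68. Its log2 difference was -1.39 (standard error 0.28, limma adjusted p = 0.00131), whereas the median of the 608 leaf-listed genes was 1.09. Of those genes 16.4% were called lower by this rule, and GLK1 was listed because of this contrast, so nothing is read from the call itself. In these bulk samples fewer expressing cells and less RNA per cell cannot be told apart, and this holds for every gene here.

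The root libraries, which played no part in listing GLK1, gave the same direction at a very low level. Spaceflight roots had 0.73, 0.51 and 0.56 FPKM, all below the lowest ground control root at 0.94 FPKM. The groups did not overlap, as was the case in that direction for 11.3% of the 608 leaf-listed genes. The mean ratio was 1.74, and the log2 difference of -0.35 (standard error 0.10, 95% interval -0.59 to -0.11) did not pass adjustment (limma adjusted p = 0.0925). Only 0.164% of the leaf-listed genes, 1 of 608, were called in roots, a count that was 6 without spaceflight root replicate 1, 21 without replicate 3, 12 with a filter of 1 FPKM in 3 libraries and 9 with trend and robust options. With values near 1 FPKM the added pseudocount of 1 shrinks this difference, and with 0.1 in its place it was -0.71, still not called. An exact permutation test of 3 against 3 libraries cannot give less than p = 0.1, which is the value GLK1 reached in either organ.

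The LHCB genes stood higher in spaceflight roots than in ground control roots, by about 2-fold. LHCB1.2 had 158, 235 and 97.65 FPKM in the spaceflight roots, where the highest ground control root had 76.9 FPKM. LHCB2.2 had 17.5, 12.9 and 11.7 FPKM on the ground and 33.1, 50.5 and 18.5 FPKM in spaceflight. LHCB4.2 had 16.7, 18.3 and 21.1 FPKM on the ground and 32.3, 58.6 and 27.9 FPKM in spaceflight. For none of these genes did the groups overlap, as for 58.5% of the 65 root-listed genes in this direction. Replicate 2 was the highest and replicate 3 the lowest spaceflight root for all of them, and the gap between these libraries exceeded the gap between replicate 3 and the ground. The ratio of means was 2.21 for LHCB1.2, 2.42 for LHCB2.2 and 2.11 for LHCB4.2.

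By limma, LHCB1.2 rose by 1.04 on the log2 scale (standard error 0.33, limma adjusted p = 0.0201) and LHCB2.2 by 1.13 (standard error 0.37, limma adjusted p = 0.0224). LHCB4.2 had 0.97 (standard error 0.31, limma adjusted p = 0.0212), short of the 2-fold threshold. That makes 2 of 3 called, where 27.7% of the 65 root-listed genes were called higher and the median difference of that table was 0.75. The genes were listed because of this contrast, so the calls are no further evidence. They rest on single libraries. Without spaceflight root replicate 2 the differences were 0.74, 0.79 and 0.66 and none was called, and without ground control root replicate 3 LHCB1.2 fell just short of 2-fold (0.997) and LHCB2.2 just missed the adjusted threshold (limma adjusted p = 0.0503), while LHCB4.2 was called at 1.06. LHCB4.2 was also called without spaceflight root replicate 1 (1.08) or 3 (1.18). Without ground control root replicate 1 it had 0.90 and missed the adjusted threshold as well (limma adjusted p = 0.0599). Adjusted over all 656 listed genes, none of the LHCB genes was called in roots (limma adjusted p = 0.0798, 0.0924 and 0.0778).

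**Figure D2:**
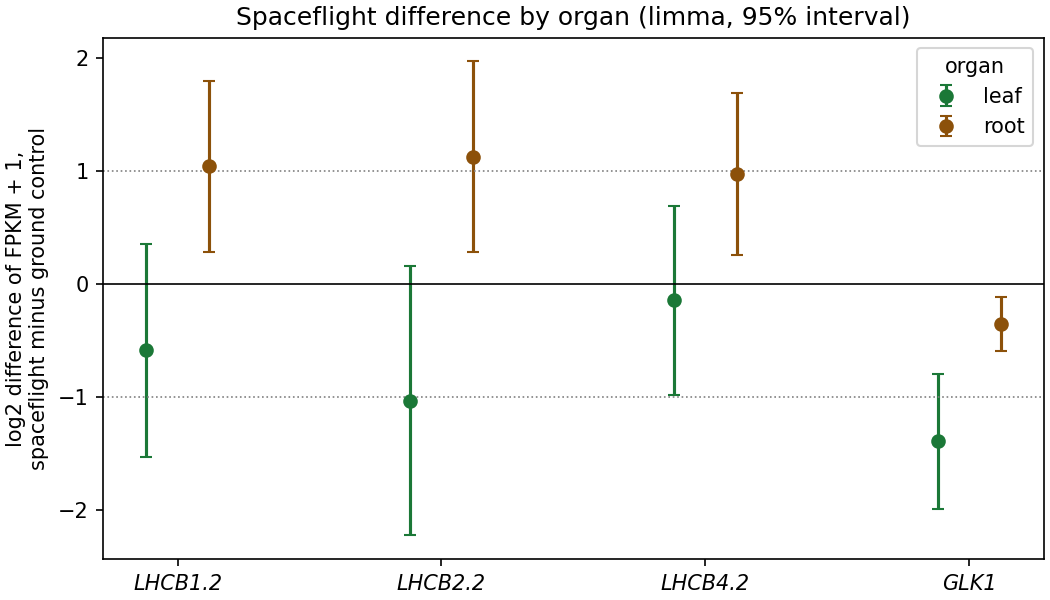
Spaceflight minus ground control on the log2(FPKM + 1) scale for each gene in leaf and root, with limma estimates and 95% intervals from 3 against 3 libraries; dotted lines mark 2-fold. The LHCB estimates lie above 0 in root and below 0 in leaf, and GLK1 lies below 0 in both organs.

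The leaf libraries were not used to list the LHCB genes, and there the genes differed from each other. LHCB2.2 had 584, 1795 and 1493 FPKM in spaceflight leaves, all below the lowest ground control leaf at 2202 FPKM. Among the 65 root-listed genes 13.8% were lower in this non-overlapping way. Its log2 difference was -1.04 (standard error 0.46, 95% interval -2.23 to 0.15) and did not pass over those genes (limma adjusted p = 0.196). It passed narrowly over all 656 listed genes (limma adjusted p = 0.0496). Of these, 608 were listed because of this same leaf contrast, which makes that adjustment lenient, so nothing is read from the pass. LHCB1.2 had 4437, 9911 and 9459 FPKM, of which the first lay below the ground control range and the others within it. Its difference was -0.59 (standard error 0.36, 95% interval -1.53 to 0.36, limma adjusted p = 0.345). LHCB4.2 had 1201, 2446 and 2532 FPKM, with 1 library far below and 2 above every ground control leaf. Its difference was -0.15 (standard error 0.32, 95% interval -0.98 to 0.69, limma adjusted p = 0.810), and it turned to 0.20 without spaceflight leaf replicate 1, when the differences of LHCB1.2 and LHCB2.2 shrank to -0.21 and -0.54. That replicate was the lowest leaf library of each LHCB gene, but not of GLK1. None of the 3 LHCB genes was called in leaves, where 7.69% of the root-listed genes were called lower.

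The spaceflight difference of the LHCB genes was lower in leaf than in root. The leaf effect minus the root effect was -1.63 for LHCB1.2 (standard error 0.49, limma adjusted p = 0.0206) and -2.16 for LHCB2.2 (standard error 0.59, limma adjusted p = 0.0126), both called. For LHCB4.2 it was -1.12 (standard error 0.45, limma adjusted p = 0.0665), which did not pass. With the replicate number as a block, which no source ties to a plate, it did (limma adjusted p = 0.0275). It also did over all 656 listed genes (limma adjusted p = 0.0338), most of which were listed for their leaf difference. Leaf and root were dissected from the same plates, and the fit without the block treats their libraries as independent. Of the 65 root-listed genes 36.9% were called in either direction in this test, in which the root side had been used for listing. For GLK1, which stood lower in both organs, the difference was -1.04 (standard error 0.25, limma adjusted p = 0.00415), where 58.6% of the leaf-listed genes were called in either direction. With a pseudocount of 0.1 it was -0.70 and no longer called (limma adjusted p = 0.0503). Without spaceflight root replicate 2 the call of LHCB1.2 was also lost (-1.32, limma adjusted p = 0.0549), and that of GLK1 fell below 2-fold without ground control leaf replicate 3 (-0.96) or spaceflight root replicate 1 (-0.98).

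**Figure D3:**
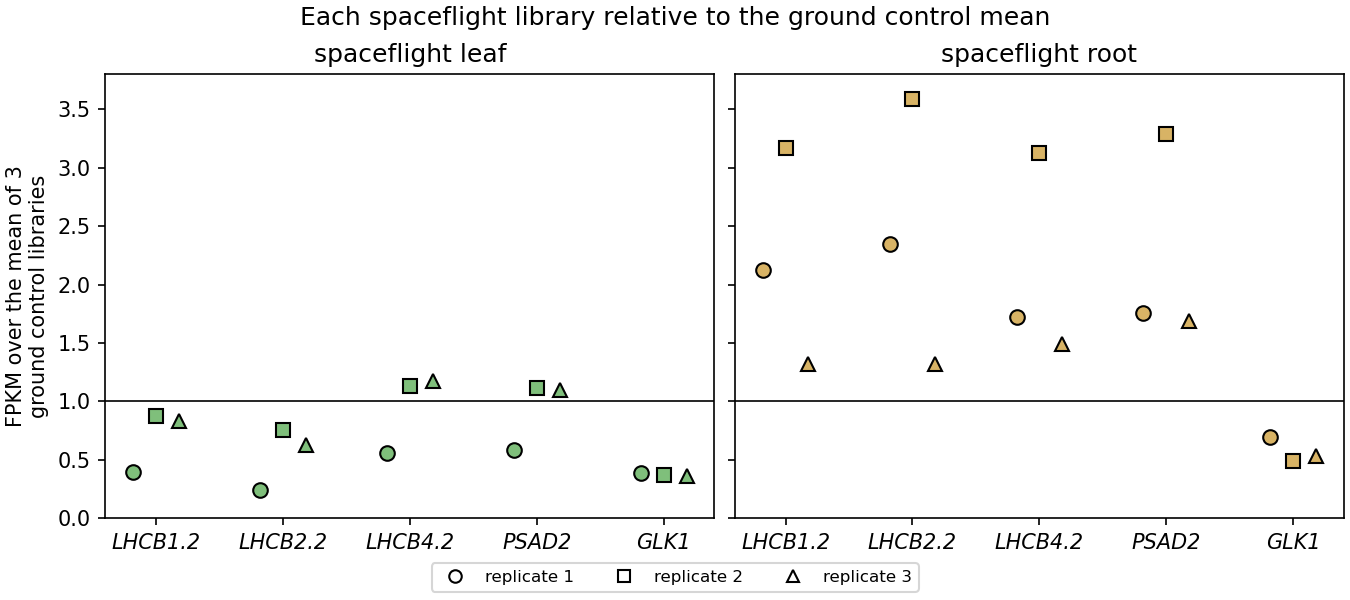
FPKM of each spaceflight library divided by the mean of the 3 ground control libraries of the same organ, for the LHCB genes, the photosystem I subunit gene PSAD2 and GLK1; symbols mark the replicate and the line marks the ground control mean. In roots LHCB genes and PSAD2 ranged from 1.32 to 3.59 with replicate 2 highest, whereas GLK1 ranged from 0.489 to 0.700.

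Other leaf-type genes were examined in the same roots, because root samples could hold RNA of green tissue. Of 21 light-harvesting proteins, 22 nuclear photosystem subunits and 4 Rubisco small subunits, the tables list the 3 LHCB genes and PSAD2, a stromal subunit of photosystem I. PSAD2 had 11.5, 14.7 and 12.6 FPKM in ground control roots and 22.7, 42.5 and 21.9 FPKM in spaceflight roots, again with replicate 2 highest. Its log2 difference of 1.05 (standard error 0.31) describes the contrast that put it in the table, as for the LHCB genes, where 27.7% of the root-listed genes were called higher. In leaves PSAD2 had 1395, 1645 and 1501 FPKM on the ground and 879, 1690 and 1657 FPKM in spaceflight, the same pattern of libraries as LHCB4.2. GLK1 stood lower in the same roots, and in spaceflight leaves as well. Its leaf over root ratio was 115 on the ground, as for LHCB4.2, and 75.0 in spaceflight. In all, 13 listed genes had a ground control leaf mean at least 50-fold above the root mean and at least 0.5 FPKM in root, a limit set after seeing the data. Those listed for root beside the LHCB genes and PSAD2, namely COL16, UP6, AT5G02760 and AT5G42530, were higher in every spaceflight root, with ratios of means from 2.35 to 3.18, but this contrast is why they are listed. The genes listed for leaf alone were not chosen by it, and beside GLK1 there were 4. Of these AT1G72910 was higher in every spaceflight root, against 19.1% of the leaf-listed genes, and the groups of GBSS1, AT1G02820 and AT4G38840 overlapped, with ratios of means from 0.695 to 1.98 over the 4 genes. All 4 were listed for a spaceflight difference in leaf. Their spaceflight leaf levels are not given here, so these root ratios cannot be set against the leaf change. The part of green tissue in the root libraries in the LHCB difference was not tested.

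Ratios between the LHCB genes were then taken within each library, where the scaling of the library cancels. In leaves LHCB4.2 stood higher relative to LHCB2.2 in spaceflight than on the ground. The LHCB4.2 to LHCB2.2 ratio was 0.934, 0.911 and 0.875 in ground control leaves and 2.06, 1.36 and 1.70 in spaceflight leaves, so the groups did not overlap. The LHCB2.2 to LHCB1.2 ratio was 0.195 to 0.234 on the ground and 0.132 to 0.181 in spaceflight, and that of LHCB4.2 to LHCB1.2 was 0.178 to 0.218 on the ground and 0.247 to 0.271 in spaceflight. Each of these differences reached the smallest p that 3 against 3 libraries allow (exact permutation test, two-sided p = 0.1, 0.2 adjusted over 6 ratios), so none can pass a threshold of 0.05. Without spaceflight leaf replicate 1 the log2 differences of the ratios kept their sign. In roots all these ratios overlapped between treatments. LHCB4.2 to LHCB2.2 ranged from 0.954 to 1.80 on the ground and from 0.977 to 1.51 in spaceflight (exact permutation test, two-sided p = 0.8). The ratios were chosen after seeing the data, and LHCB1.2 and LHCB2.2 carry the limit of shared reads given above. The 3 ratios within an organ are not separate results, since each follows from the others. How often ratios of other gene pairs separate in this way was not counted.

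**Figure D4:**
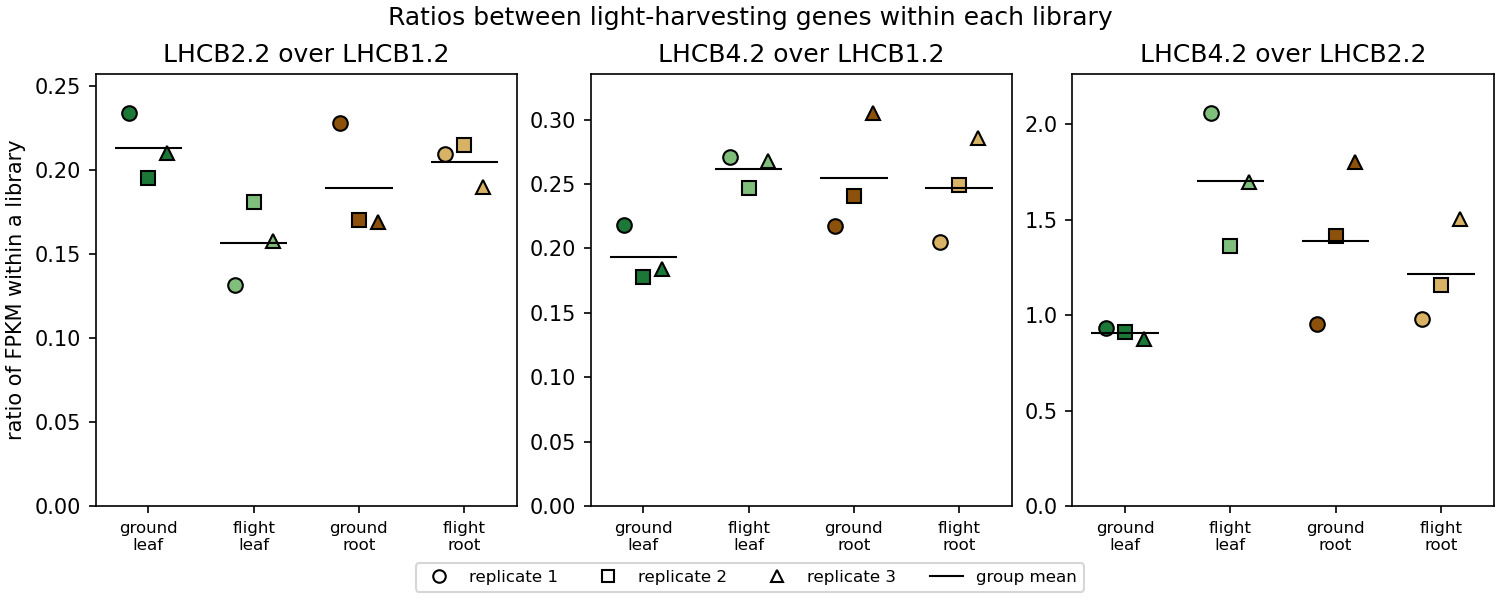
Ratio of FPKM between pairs of LHCB genes within each library, by group; symbols mark the replicate and bars the mean of 3 libraries, and the axes start at 0. In leaf the LHCB4.2 to LHCB2.2 ratio was 0.875 to 0.934 on the ground and 1.36 to 2.06 in spaceflight, and in root the groups overlapped for all ratios.

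The genes most like each member were sought among all 656 genes by Pearson's r of log2(FPKM + 1), as a description. Within an organ, genes listed for that organ share a treatment difference by selection, which can raise r among those that change in the same direction. Over the 12 libraries, which form an organ cluster each, PSAD2 came first for LHCB1.2 (r = 0.998), LHCB2.2 (r = 0.992) and LHCB4.2 (r = 0.999). COL16, a B-box protein of the CONSTANS-like family, was among the nearest 3 of each LHCB gene (r = 0.989 to 0.997), with AT3G50270 for LHCB1.2 and LHCB4.2 and AT2G42975 for LHCB2.2. Over the 6 root libraries COL16 was nearest to LHCB1.2 (r = 0.986), followed by BHLH63 and DYL1. OXS3 was nearest to LHCB2.2 (r = 0.985), followed by UP6 and COL16, and the MADS-box gene AGL24 was nearest to LHCB4.2 (r = 0.991), followed by AT1G03610 and AT5G40720. COL16 ranged from 1.33 to 1.46 FPKM in ground control roots and from 2.23 to 6.58 FPKM in spaceflight roots. For GLK1 the nearest over 12 libraries were GASA9, of a gibberellin-regulated family, BHLH72, a light-signalling factor, and AT1G74290 (r = 0.993 to 0.995). Over the 6 leaf libraries they were AT1G78100 (r = 0.997), the aquaporin gene PIP2-3 (r = 0.993) and AT1G74290 (r = 0.988). Among themselves the LHCB genes had r = 0.814 to 0.969 over the 6 leaf libraries and r = 0.900 to 0.983 over the 6 root libraries, while GLK1 had r = 0.136 to 0.671 with them in leaf and r = -0.838 to -0.774 in root. The LHCB genes were listed for their spaceflight difference in root, and GLK1 stood lower there, within 0.51 to 1.19 FPKM. The negative r in root carries these treatment differences and is not a separate result.

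Of the rest of the pathway little was listed. Of 19 genes of chlorophyll synthesis and 9 of chlorophyll breakdown, 0 are in either table, and of 11 regulators of photosynthesis genes GLK1 alone is. The tables list 656 genes in all, against 27443 protein-coding genes of the genome. Lists this short would thus hold few listed genes in any case, and nothing is read from these counts. The values of unlisted genes were not analysed here. Of 7 LHC-like proteins, which are related to the antenna, ELIP1 and ELIP2 are listed for both organs because of these contrasts. ELIP proteins accumulate briefly under light stress. ELIP1 and ELIP2 were called lower in an organ only in the fit over that organ's own table, and missed the threshold over the other table (limma adjusted p = 0.170 and 0.187 in leaves over the root-listed genes, and 0.0534 for both in roots over the leaf-listed genes). In roots ELIP1 went from 94.8 ± 9.36 to 34.6 ± 16.6 FPKM (SD, n = 3 each) where the LHCB genes stood higher.

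The 250 bases before the annotated start of each LHCB gene are shown because the 3 genes stood higher together in spaceflight roots and CCAATC is a motif enriched in promoters that respond to GLK factors. Capitals mark CCAATC or GATAAG on either strand, with sequences in the direction of the gene from RefSeq TAIR10.1, at chr1:10473503-10473752 (minus strand), chr2:1800473-1800722 (minus strand) and chr3:2717307-2717556 (plus strand):
LHCB1.2: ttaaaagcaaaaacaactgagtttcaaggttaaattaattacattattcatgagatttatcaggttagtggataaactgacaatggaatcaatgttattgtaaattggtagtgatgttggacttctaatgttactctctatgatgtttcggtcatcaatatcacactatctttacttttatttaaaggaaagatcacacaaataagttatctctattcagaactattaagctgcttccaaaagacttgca
LHCB2.2: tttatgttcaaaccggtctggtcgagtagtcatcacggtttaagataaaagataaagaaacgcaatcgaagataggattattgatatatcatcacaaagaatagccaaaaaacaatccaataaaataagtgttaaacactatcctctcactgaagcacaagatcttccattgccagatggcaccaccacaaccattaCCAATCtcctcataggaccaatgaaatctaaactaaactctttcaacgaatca
LHCB4.2: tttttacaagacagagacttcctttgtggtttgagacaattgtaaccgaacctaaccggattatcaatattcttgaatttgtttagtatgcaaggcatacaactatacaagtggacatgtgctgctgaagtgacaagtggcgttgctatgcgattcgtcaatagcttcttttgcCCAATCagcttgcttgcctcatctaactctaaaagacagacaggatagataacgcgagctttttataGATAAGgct
CCAATC occurs on the plus strand of LHCB2.2, starting at -53, and of LHCB4.2, starting at -76, and is not in the window of LHCB1.2 or GLK1. Of 27443 protein-coding genes 10.2% hold CCAATC in this window on either strand. GATAAG, a core of light-responsive promoter elements, occurs in LHCB4.2 at -9 and on the minus strand of GLK1 at -49, and 12.3% of genes hold it. The palindromic G-box CACGTG is in none of the 4 windows, and 6.49% of genes hold it. The motifs do not overlap each other. A match is only a description of these letters.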

How the data were processed

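RNA-seq libraries of leaf and root from 3 spaceflight and 3 ground control plates were used. Quality control (FastQC), trimming (Trimmomatic), alignment to TAIR10 (STAR) and quantification (RSEM) were done by the authors. The sources used here give no versions. The authors' deposited FPKM of each library was analysed. The unit is not named in the tables and was inferred: the ratio of the authors' deposited mean CPM to mean FPKM increased with gene length, with a Spearman's rho of 0.793 for 606 leaf-listed and 0.755 for 63 root-listed genes. Columns of the authors' fold changes, p-values and FDR were not used. Genes listed in both tables, 17 in all, have identical values in them.

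log2(FPKM + 1) was fitted with limma 3.58.1 (R 4.3.3) over all genes of the table that lists the member, with Benjamini-Hochberg adjustment over that table. Each organ, each treatment, and all 12 libraries for the difference of effects were fitted without a replicate block. The steps were tested on simulated data, with levels raised above those of the libraries and effects larger than 2-fold. That test did not cover values near 1 FPKM, effects near 2-fold or the selection of the listed genes. Alternatives were pseudocounts of 0.1 and 5, a filter of 1 FPKM in 3 libraries, all 656 genes, a replicate block, limma with trend and robust options, and leaving out each replicate. The named genes are the members, every listed gene of the fixed pathway lists, and the 3 most correlated genes of each member. The members and lists were chosen with earlier results of these data known. Positions and sequences are from TAIR10.1 by locus identifier. Python 3.11.15, pandas 2.3.3, scipy 1.17.1, Biopython 1.88 and matplotlib 3.10.9 were used.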

Additional observations from a re-analysis of the deposited data

Results flagged for a closer look

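The effect of spaceflight differed between leaf and root by a test of the difference itself for 3 of the 4 genes, where 36.9% of the root-listed and 58.6% of the leaf-listed genes were called. One side of each difference, root for the LHCB genes and leaf for GLK1, had been used for listing. The leaf effect minus the root effect on the log2(FPKM + 1) scale was -1.63 for LHCB1.2 (limma adjusted p = 0.0206) and -2.16 for LHCB2.2 (limma adjusted p = 0.0126), whose spaceflight means were lower in leaf and higher in root. It was -1.04 for GLK1 (limma adjusted p = 0.00415), whose spaceflight means were lower in both organs, and this call was lost with a pseudocount of 0.1 (-0.70, limma adjusted p = 0.0503). With the replicate block LHCB4.2 was called as well (-1.12, limma adjusted p = 0.0275).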

How the results depend on the processing

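The 20 results for single genes were recomputed under the alternatives, which gave 263 values, of which 242 had the same direction and side of the threshold. The organ differences of all 4 genes and the leaf call of GLK1 (log2 -1.49 to -1.31) held in each. With all 656 genes in the fit, the root differences of LHCB1.2 (1.04) and LHCB2.2 (1.13) were no longer called. LHCB2.2 in leaf (-1.04) and the leaf minus root effect of LHCB4.2 (-1.12) were called there. That adjustment covers more genes, most of them listed for their leaf difference, which makes it lenient for leaf changes. With a pseudocount of 0.1 LHCB4.2 was called in root (1.01) and the difference of effects of GLK1 (-0.70) was not, and with 5 LHCB2.2 fell short in root (0.96). Leaving out single replicates gave root differences of 0.74 to 1.37 for LHCB1.2, 0.79 to 1.49 for LHCB2.2 and 0.66 to 1.18 for LHCB4.2. Leaf differences were -0.79 to -0.21, -1.35 to -0.54 and -0.33 to 0.20, the last turning sign (0.20) without spaceflight leaf replicate 1. Differences of effects were -1.95 to -1.25 for LHCB1.2, -2.53 to -1.67 for LHCB2.2, -1.33 to -0.77 for LHCB4.2 and -1.14 to -0.96 for GLK1.

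The replicate block called the difference of effects of LHCB4.2 (-1.12, limma adjusted p = 0.0275) and changed no other call of these genes. For spaceflight against ground control in 1 organ, the block joins libraries of the same number that came from different plates. Same-numbered leaf and root libraries deviated together unevenly (r = -0.08 to 0.63 over the root-listed and -0.03 to 0.42 over the leaf-listed genes), so the numbers alone were not taken as pairs; leaf and root came from the same plates, but no source ties a number to a plate.

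Of the 65 root-listed genes 36 were called in roots, against 57 and 12 with pseudocounts of 0.1 and 5 and 18 without spaceflight root replicate 2. In leaves 12 were called, and 4, 6 and 7 without spaceflight leaf replicates 3 and 2 and ground control leaf replicate 3. For the difference of effects 24 became 13 with a pseudocount of 5. Of the 608 leaf-listed genes 453 were called in leaves and 272 with a pseudocount of 5, and 356 became 218 for the difference of effects. In roots 1 was called, against 12 with the FPKM filter, 4 with the block, 9 with trend and robust options and 0 to 21 leaving out single replicates. GLK1 has no value in root under that filter. The cause of these changes was not tested. FPKM without counts leaves the depth unknown, also for GLK1 in roots, where all values lie between 0.51 and 1.19 FPKM.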

Other observations

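The LHCB genes varied more between spaceflight libraries than between ground control libraries, in leaf as in root. Their coefficients of variation over 3 libraries were 6.13 to 15.8% in ground control leaves and 36.2 to 48.9% in spaceflight leaves, and 5.58 to 21.8% in ground control roots and 41.9 to 47.1% in spaceflight roots. GLK1 had 12.8% in ground control leaves and 4.37% in spaceflight leaves, and 12.5% and 19.2% in roots. PSAD2 also spread more widely in spaceflight (mean ± SD, n = 3). It went from 1514 ± 125 to 1409 ± 459 FPKM in leaves and from 12.9 ± 1.64 to 29.0 ± 11.7 FPKM in roots. ELIP2 in leaves went the other way, from 57.0 ± 31.8 to 24.9 ± 8.65 FPKM. The spread was not compared over all listed genes, and it was not tested, as 3 libraries estimate it poorly. The library that stood apart carried replicate number 1 in spaceflight leaf, where the LHCB genes were at 0.245 to 0.555 of the ground control mean, and number 2 in spaceflight root, where they were at 3.13 to 3.59 of it.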
